A study of Drosophila melanogaster with 2 samples.

Results

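The strongest Groucho sites of the Drosophila melanogaster embryo were the regions of the authors' reproducible peak list whose signal was 250 or more. That list was selected with the irreproducible discovery rate (IDR), and its regions are called IDR peaks here. In the dm6 build 355 of 4492 IDR peaks met the rule. For ChIP-seq, an anti-GFP antibody precipitated chromatin of entire embryos, male and female together, collected over 0 to 24 h of development from transgenic flies whose gro carries GFP at its C-terminus. There was 1 group with 2 biological replicates, numbered 1 and 3, and no treated, untagged or younger group to compare. The promoter that drives the fusion, and whether untagged Groucho is also present, are not stated in the labels. The cell type in which Groucho was bound cannot be read from whole embryos of this age range.

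Groucho is a corepressor of the TLE family that does not bind DNA itself. DNA-binding repressors such as Hairy and the Enhancer of split proteins bring it to their targets, where it acts with histone deacetylases and is known for its part in segmentation, neurogenesis and the readout of Notch and Wingless signalling. The 25 highest sites are described below mainly through counts, and the few of their genes that are named are marked as such. The functions given are those of genes at sites ranked lower.

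The signal that chose these sites ran from 250.7 to 1892 in the authors' units, with a median of 329. Its scale is not stated, so it ranks sites within a list and nothing more. A signal of 500 or more was held by 68 sites, and 10 of these reached 1000 or more. Just inside the threshold were Rdh1 at 251.5, CG42268 at 250.8 and brat at 250.7. Just outside it were pes at 249.98, svr at 249.8 and deltaCOP at 249.3. The order is therefore continuous across the threshold.

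Summit sequences of 8 sites ranked 32 or lower are shown because base composition at the summit was a feature the rule did not use. They come from the RefSeq Release 6 genome, which is dm6. Each runs 5′ to 3′ on the strand of the named gene, with the summit at base 51. Capitals mark the words TATAAA and CGATA on either strand, 2 words whose frequency is compared with the other IDR peaks further on. In the gro stretch of 201 bases an annotated transcription start site (TSS) lies at base 185. The Trl stretch lies inside the gene, downstream of the start, and the others lie upstream of theirs.
gro (chr3R:26042457-26042657, plus strand): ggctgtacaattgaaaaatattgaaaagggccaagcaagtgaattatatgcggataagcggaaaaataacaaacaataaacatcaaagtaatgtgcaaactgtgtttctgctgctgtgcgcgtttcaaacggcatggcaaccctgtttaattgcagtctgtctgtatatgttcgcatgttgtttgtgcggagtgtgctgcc
Atf3 (chrX:1275465-1275565, minus strand): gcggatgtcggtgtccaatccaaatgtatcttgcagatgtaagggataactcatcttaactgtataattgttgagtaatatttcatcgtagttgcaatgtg
Atat (chr3L:9426833-9426933, minus strand): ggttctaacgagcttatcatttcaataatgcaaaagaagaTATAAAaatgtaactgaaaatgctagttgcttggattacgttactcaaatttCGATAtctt
gish (chr3R:16280682-16280782, plus strand): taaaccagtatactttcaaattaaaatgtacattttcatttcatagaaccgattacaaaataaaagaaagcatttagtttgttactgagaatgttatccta
Nuak (chr3R:10264125-10264225, plus strand): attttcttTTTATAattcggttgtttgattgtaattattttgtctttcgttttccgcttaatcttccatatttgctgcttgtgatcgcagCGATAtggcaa
Gapdh2 (chrX:15867939-15868039, plus strand): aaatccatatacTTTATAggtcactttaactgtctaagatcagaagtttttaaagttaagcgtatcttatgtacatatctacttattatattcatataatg
RpL32 (chr3R:30046209-30046309, minus strand): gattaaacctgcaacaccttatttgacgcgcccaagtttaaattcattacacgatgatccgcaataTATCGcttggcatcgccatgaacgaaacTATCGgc
Trl (chr3L:14759475-14759575, minus strand): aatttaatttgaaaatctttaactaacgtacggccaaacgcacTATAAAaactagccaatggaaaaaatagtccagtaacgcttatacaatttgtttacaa

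The G+C content of these stretches ranged from 24.8% at gish and Gapdh2 to 43.6% at RpL32. The RpL32 stretch holds 2 CGATA words, both downstream of the summit. The word TATAAA occurs 1 time each at Atat, Nuak, Gapdh2 and Trl. These stretches are examples and give no frequency. Stretches of amon, Tlk and chinmo, also taken but not shown, hold neither word. Over all sites, TATAAA was in 21.1% of windows of 101 bp around the summit.

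Ranks 26 to 75 held 50 sites, with signals from 480.6 to 712.5. The summit lay within 500 bp of an annotated TSS at 35 of them, in an intron at 12, between genes at 2 and in another exon at 1. A protein-coding TSS lay within 1 kb of 37, and the summit was upstream of it at 32. TSSs of 2 or more protein-coding genes lay within 1 kb, so that they shared the site, at 17 of the 50. The same held for 27.6% of all 355 sites and 26.1% of the other IDR peaks. The nearest protein-coding gene had a CG number for a name at 16 of the 50 (32%), against 43.7% of all protein-coding genes. Such names were also held by 1123 of the 3612 genes with any IDR summit within 1 kb of a TSS.

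**Figure D1:**
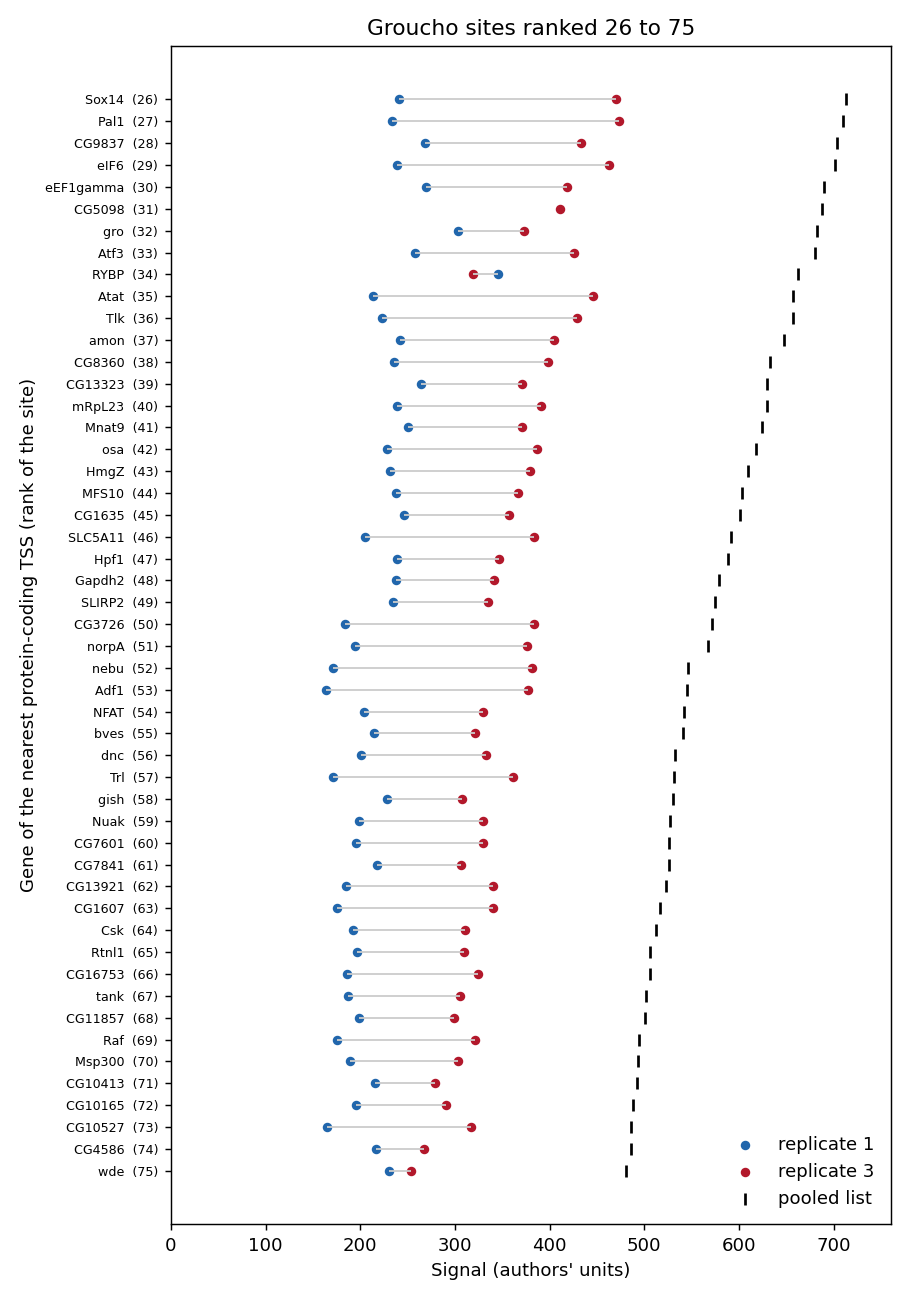
Signal (horizontal axis, authors' units) of each of the 50 sites ranked 26 to 75, with the gene of the nearest protein-coding TSS and the rank on the vertical axis. Points are replicates 1 and 3, and black marks the pooled list, which has a scale of its own. Replicate 3 lies to the right of replicate 1 at every site with both values but the one nearest RYBP, where the order is turned, and CG5098 has no value in replicate 1.

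The gro gene itself carried the site of rank 32. Its signal was 682.5 in the pooled list, 303.0 in replicate 1 and 372.5 in replicate 3, with the summit 134 bp upstream of a gro TSS. A further gro site, of rank 242, lay 832 bp away and 61 bp upstream of another gro TSS. It had a pooled signal of 293.5, with 136.2 in replicate 1 and 157.3 in replicate 3. The site of rank 32 was the higher one in both replicates.

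Genes of transcription factors were among these sites. Sox14, an HMG-box factor induced by ecdysone, had the site of rank 26, 260 bp upstream of its TSS, with 240.6 in replicate 1 and 469.7 in replicate 3. Atf3, a bZIP factor, had a site 231 bp upstream with 257.8 and 426.0 in replicates 1 and 3. NFAT had a site in its first intron with 204.0 and 330.0 in replicates 1 and 3. At Trl, which encodes the GAGA factor, the site was in an intron 1524 bp downstream of the TSS, with 171.2 and 361.6. Adf1, a factor named for the Alcohol dehydrogenase promoter, had a first-intron site with 164.4 and 377.4, a ratio of 2.30 between replicates and among the 5 highest of all the sites. In each of these genes the value of replicate 3 was above that of replicate 1.

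Chromatin genes formed the next group. HmgZ and HmgD encode small HMG-box chromosomal proteins, and 1 site lay in introns of both, 539 bp from a HmgZ TSS, with 231.9 in replicate 1 and 379.1 in replicate 3. A site inside osa, which encodes a subunit of the SWI/SNF-type Brahma complex, had 228.4 and 386.6. It lay 13933 bp from the osa TSS, in an exon classed as neither UTR nor coding sequence. Exons of all genes, coding or not, enter that class, so the exon need not be one of osa. The nearest TSS, at 722 bp, was that of lncRNA:CR46035. Windei (wde), a cofactor of the histone H3 lysine 9 methyltransferase Eggless, had an intron site of rank 75 with 230.4 and 253.9. These values were close, but the site ranked 45 in the replicate 1 list and 103 in that of replicate 3. Hpf1, the histone PARylation factor, had a promoter site 128 bp upstream with 238.5 and 346.6. Tlk, a kinase of chromatin assembly, had 2 first-intron sites, of rank 36 and rank 302. The stronger had 223.4 and 429.0 in replicates 1 and 3, and the weaker 106.0 and 163.8. The site of rank 34, nearest to RYBP, which encodes a Polycomb-associated protein, was intergenic at 7606 bp. It was the 1 site of this range with more signal in replicate 1, 346.0 against 319.1.

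Kinases and signalling genes followed. Raf, the MAP kinase kinase kinase downstream of Ras, had 2 intron sites. The one of rank 69 had 175.6 in replicate 1 and 321.3 in replicate 3, and the one of rank 275 had 129.3 and 154.6. At gilgamesh (gish), which encodes a casein kinase I, the summit was 157 bp upstream, with 228.6 and 307.7. Nuak, an AMPK-related kinase, had a site 131 bp upstream with 198.5 and 329.3. Csk, the C-terminal Src kinase, had a first-intron site with 192.1 and 310.5. Mkk4, a MAP kinase kinase of the JNK pathway, shared a promoter site with SLIRP2 that had 234.2 and 335.1. Atat, the alpha-tubulin acetylase, shared a promoter site with the adaptor gene Shc, with 213.0 and 445.6. The intron sites of Raf and Csk had lower values in replicate 1 than the promoter sites of gish, Nuak, Mkk4 and Atat.

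Several genes known from neurons were in the same range. Amontillado (amon) encodes a prohormone convertase and Pal1 an enzyme of peptide amidation, so both act in making neuropeptides. Their promoter sites lay 210 bp and 166 bp upstream. amon had 242.5 in replicate 1 and 405.1 in replicate 3, and Pal1 had 233.7 and 473.2, the highest replicate 3 value among ranks 26 to 75. The phospholipase C gene norpA, which acts in phototransduction, had a first-intron site with 194.5 and 376.3. Dunce (dnc), the cAMP phosphodiesterase of learning mutants, had 2 promoter sites, with 200.5 and 333.3 at rank 56 and 109.2 and 182.8 at rank 244.

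Housekeeping genes stood beside these. eIF6, a factor of 60S ribosomal subunit assembly, shared its site of rank 29 with yantar (ytr), with 238.5 in replicate 1 and 462.5 in replicate 3. The mitochondrial ribosomal protein gene mRpL23 had a site 59 bp downstream of its TSS with 238.7 and 390.7. Gapdh2, a glycolytic enzyme, had a site 156 bp upstream with 238.0 and 340.9. CIA30, an assembly factor of respiratory complex I, shared a site with CG7601 that had 195.8 and 329.6. Trehalase (Treh) shared one with CG10527 that had 164.7 and 317.5, and Stt3A, a catalytic subunit of oligosaccharyltransferase, shared one with bves that had 214.2 and 320.7. The cell structure genes Msp300 (a nesprin), Rtnl1 (a reticulon of the endoplasmic reticulum) and Mnat9 (a microtubule-associated protein), had promoter sites with 189.4 to 250.4 in replicate 1 and 302.9 to 371.2 in replicate 3. In this group replicate 1 spanned 164.7 to 250.4, and every gene was higher in replicate 3. Z600, an inhibitor of the embryonic cell cycle, shared a site with CG7841 that had 218.0 and 306.9.

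CG5098 and CG5757, at rank 31, shared a site with 411.3 in replicate 3 and no region in the replicate 1 list, whose nearest region lay 30178 bp away. CG4497, at rank 344, had 103.8 in replicate 1, and the nearest region of replicate 3, with 148.5, missed it by 17 bp. The other 353 sites overlapped regions of both replicate lists.

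Replicate signals were compared over these 353 sites. They ran from 78.2 to 740.9 in replicate 1, with a median of 138.9, and from 113.1 to 1154 in replicate 3, with a median of 197.1. Replicate 3 was higher at 333 sites (94.3%, Wilson 95% interval 91.4 to 96.3), and over all IDR peaks the same held for 64.3%. Both replicates enter the pooled signal that set the threshold, and each replicate list has its own scale, so these levels are a description with no test. The ratio of replicate 3 to replicate 1 had a median of 1.495 and ran from 0.713 to 2.40. It was 1.61 for ranks 1 to 25, 1.63 for ranks 26 to 75 and 1.46 below these, against 1.14 for the other IDR peaks. With each replicate divided by its median over the matched IDR peaks, replicate 3 was still higher at 90.65% of sites.

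**Figure D2:**
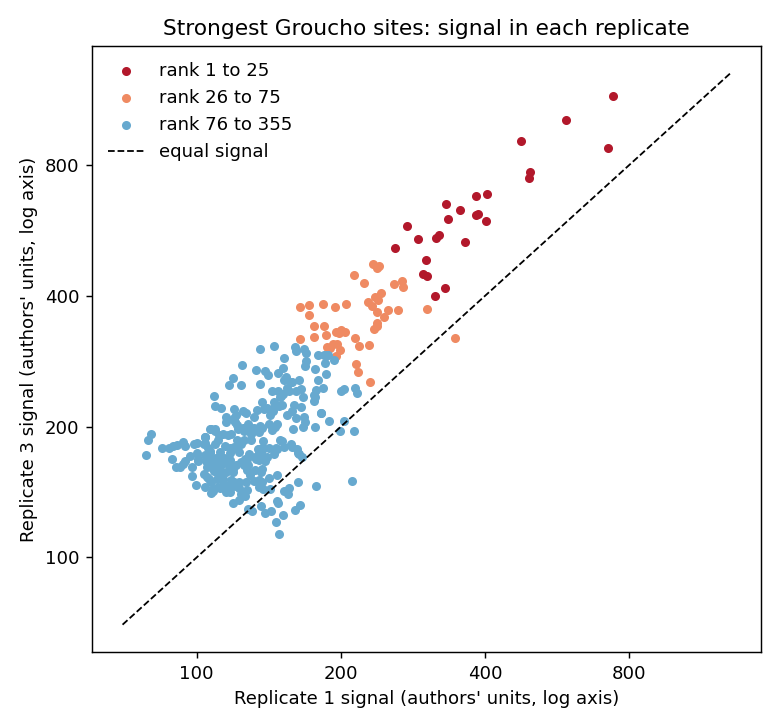
Signal of each site in replicate 1 (horizontal, log axis) and replicate 3 (vertical, log axis) for the 353 sites with both values, coloured by rank. All 25 sites of ranks 1 to 25 and 48 of 49 of ranks 26 to 75 lie above the dashed line of equal signal, and the points below it come mostly from ranks 76 to 355.

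The order of the sites was shared in part. Spearman's rho between replicates was 0.704 over the 353 sites, Pearson's r of the log2 signals was 0.851, and within ranks 26 to 75 rho was 0.388. These points share the pooled selection, so no p is given. Of the 355 sites, 296 (83.4%) overlapped the 355 highest regions of replicate 1, 316 (89.0%) those of replicate 3, and 263 (74.1%) both. The 6 in neither were CG4497, CG43131, Nup160, Rdh1, CG42268 and brat, all of rank 344 or lower. Summits moved little: the median shift from the pooled summit was 6 bp in replicate 1 and 9 bp in replicate 3.

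More signal in replicate 1 was seen at 20 sites. The lowest ratio, 0.713, was at an intron site of CG14502 that also lies in scribbler (sbb), with 210.7 in replicate 1 and 150.2 in replicate 3. cact, which encodes the IκB protein of the Toll pathway, had 164.7 and 131.8, and Eip75B, an ecdysone-induced nuclear receptor, had 160.6 and 128.6. yps, a cold-shock domain RNA-binding protein, had 177.7 and 146.0. The ribosomal protein genes RpS25, RpS4, RpL11 and RpS20 were also among the 20. At the other end, CG12769 had 80.1 and 192.6, Lpin, a lipin phosphatidate phosphatase, 79.0 and 186.6, and Tina-1 124.5 and 277.8. Of the 5 highest ratios all but that of Adf1 had replicate 1 values under the median of the sites, and the 5 lowest all had replicate 3 values under it.

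The position classes of the sites differed little in share from those of the rest of the list. The summit lay within 500 bp of a TSS at 233 (65.6%, Wilson interval 60.5 to 70.4), against 62.4% (60.9 to 63.9) of the other 4137 IDR peaks. Introns held 86 (24.2%) against 27.3%, and intergenic sequence 29 (8.17%) against 7.88%. The 5′ UTR, the 3′ UTR and other exons held 2 each and coding sequence 1, in otp, the homeobox gene orthopedia. The highest in a 3′ UTR was in blistery (by), a tensin, with 169.5 in replicate 1 and 283.5 in replicate 3, and the highest in a 5′ UTR was in Fbl6, with 119.6 and 209.5. Sites over 5 kb from any TSS were rarer, at 14 (3.94%, 2.36 to 6.51) against 8.73% (7.90 to 9.62), and these intervals do not overlap.

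**Figure D3:**
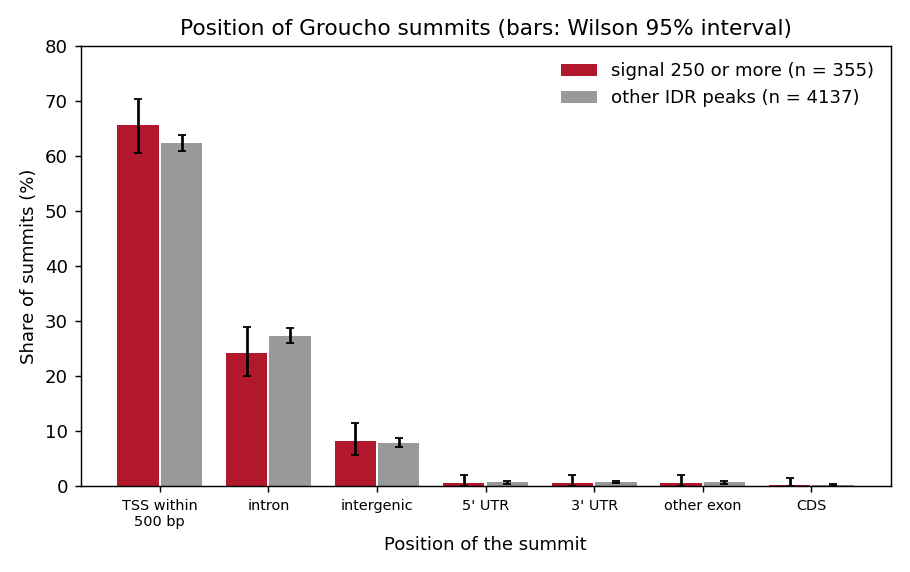
Share of summits (vertical axis, %) in each position class for the 355 strongest sites (red) and the other 4137 IDR peaks (grey), with Wilson 95% intervals as bars. TSS, intron and intergenic shares of both sets lie within or near each other's intervals, at 65.6% and 62.4% for the TSS class.

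Promoter sites differed from the rest in where the summit fell. A protein-coding TSS was within 1 kb of 265 sites (74.6%, 69.9 to 78.9), a higher share than the 68.3% (66.8 to 69.7) of the other IDR peaks. Of these sites 206 (77.7%, 72.4 to 82.3) had the summit upstream, against 66.3% (64.5 to 68.0) of the other IDR peaks. The summit lay 50 to 250 bp upstream at 136 (51.3%, 45.3 to 57.3) against 32.3% (30.6 to 34.0). Within 50 bp of the TSS were 36 (13.6%, 9.98 to 18.2) against 34.7% (33.0 to 36.5). The median signed distance was −124 bp, with quartiles of −211 and −29 bp, against −41 bp, with quartiles of −125 and 26 bp, where negative values are upstream. By signal, the median was −132.5 bp at 500 or more, −109 bp at 250 to 500, −57 bp at 150 to 250 and −37 bp under 150. The shift upstream was therefore graded with signal across the list.

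**Figure D4:**
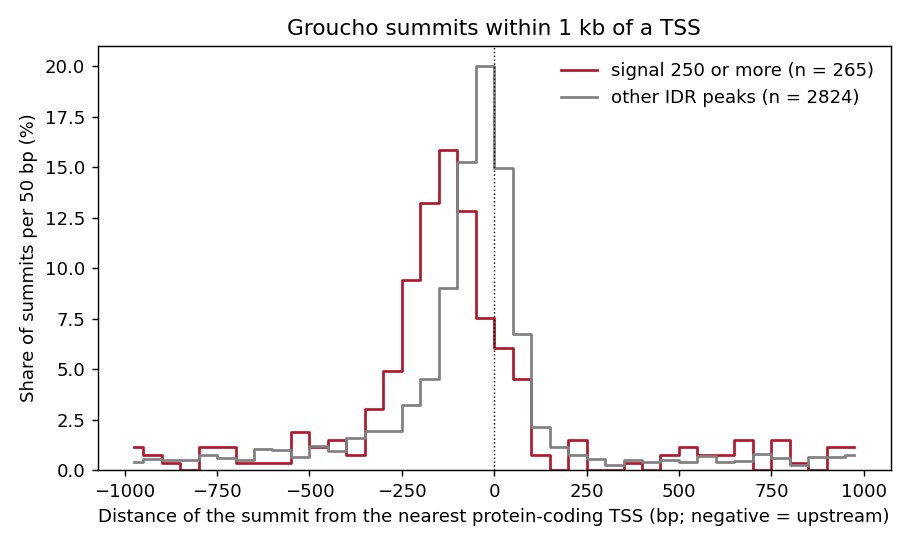
Distance of the summit from the nearest protein-coding TSS (horizontal axis, bp, negative upstream) as a share of summits per 50 bp (vertical axis, %), for the 265 strongest sites within 1 kb of a TSS (red) and 2824 other IDR peaks (grey). The red curve peaks 100 to 150 bp upstream and the grey curve just upstream of the TSS.

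Intron sites were mostly in a first intron. Of the 86, 74 (86.0%) lay in a first intron of an annotated transcript, against 71.2% of intron peaks in protein-coding genes among the other IDR peaks. Their median distance from the nearest TSS of any gene, coding or not, was 1178.5 bp against 2238 bp. The TSS of the host gene can be farther. The site in Roc2 lay 1036 bp from a tRNA gene but 17683 bp from the Roc2 TSS. Examples outside the first intron were Raf, with its 2 sites, Trl, and mamo, a zinc finger gene whose site lay 42362 bp from the TSS with 122.8 in replicate 1 and 144.4 in replicate 3. At 9 of the 86 the nearest protein-coding TSS belonged to another gene than the host; the site in mastermind (mam), a coactivator of Notch signalling, was one, with 111.8 and 144.5.

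A protein-coding TSS lay within 500 bp of 223 of the 233 sites at a TSS, against 2474 of 2581 among the other IDR peaks. Noncoding genes gave the only TSS within 500 bp at the remaining 10 sites. The highest outside the 25 was that of rank 30, at lncRNA:CR31044, 5723 bp upstream of eEF1gamma, with 269.7 in replicate 1 and 418.5 in replicate 3. Others, picked after their values were seen, lay at lncRNA:CR46243, 9263 bp upstream of Myc, and at lncRNA:CR44331, inside puckered (puc), the JNK phosphatase. They had 112.4 and 165.5 at Myc and 127.5 and 158.5 at puc.

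Distant sites included the intergenic one of rank 39, 11985 bp from CG13323, with 263.7 and 370.6. Upstream of chinmo, which encodes a BTB zinc finger factor of neuronal timing, 3 intergenic sites lay 12367, 16895 and 18372 bp from the TSS. Their pooled signals were 403.3, 269.4 and 259.1, and replicate 3 had 255.5, 180.0 and 151.5. By arm, 72 sites were on 2L, 68 on 2R, 64 on 3L, 86 on 3R and 65 on X. These were 8.47%, 7.45%, 6.94%, 8.05% and 9.02% of the IDR peaks of each arm, against 7.90% of the whole list. The fourth chromosome held 0 of its 18 IDR peaks, which allows a share of up to 17.6% (upper Wilson bound).

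Pairs of sites were found at some genes. In or within 1 kb of the TSS of 25 protein-coding genes there were 2 sites, and at none of the genes counted so were there 3 or more. Besides gro, Tlk, Raf and dnc they included NFAT (542.4 and 274.4), Rtnl1 (506.0 and 343.9), foraging (for, a cGMP-dependent kinase, 425.0 and 305.0) and REPTOR, a bZIP factor of the TOR response (345.8 and 270.1). elav, a neuronal RNA-binding protein, had 346.9 and 265.4 at sites 869 bp apart. At u-shaped (ush) and cabut (cbt), which encode transcriptional regulators, the site of rank 88 lay 966 bp from that of rank 1, with 216.6 in replicate 1 and 238.9 in replicate 3. At Fur1 and Vps33B 2 summits 200 bp apart shared 1 interval, and the overlapping regions of highest signal had 181.4 in replicate 1 and 214.9 in replicate 3. The replicate 1 region nearest to the Vps33B summit had 142.7. Another IDR summit of any signal lay within 5 kb of 241 sites (67.9%) against 59.2% of the other IDR peaks.

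Genes with a site within 1 kb of a TSS numbered 365, which is 2.62% of 13945 protein-coding genes. The site at mod(mdg4), whose trans-spliced exons are annotated as separate genes, counts for 10 of them. A further 71 genes had a site inside and none near a TSS. Of the 365, 107 (29.3%) were named by a CG number, against 43.7% of all protein-coding genes, so 1.75% (1.45 to 2.12) of the genes with such names had a site. The low share was not particular to the strongest sites. Of the 3612 genes with an IDR summit of any signal within 1 kb of a TSS, 1123 had such names. These were 18.4% of the genes with such names, against 25.9% of all genes. The signal chose the sites, so the shares of gene lists below are read against 2.62% as a description. The lists, 31 by role with 1683 genes, hold the gene of 99 sites and none of the other 256. They do not hold every gene of a role, so each share describes the listed genes alone. Adf1 is not in the transcription factor list, for example, nor Nuak in the kinase list, though both have a site.

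Translation was the role with most genes. Of 92 cytosolic ribosomal protein genes 12 had a site (13.0%, Wilson interval 7.62 to 21.4), while 73.9% had an IDR peak of any signal, against 25.9% of all genes. Pooled signals at these 12 ran from 270.5 at RpS4 to 466.0 at RpL7, with a median of 314.4. RpL7 had 213.8 in replicate 1 and 245.3 in replicate 3, RpL32 203.1 and 244.5, RpL23A 159.3 and 223.8 and RpS27 167.5 and 210.4. Their summits lay from 149 bp upstream at RpS20 to 15 bp downstream at RpS4, with a median of −50 bp against −124 bp for all sites within 1 kb of a TSS. The ratio of replicate 3 to replicate 1 was 1.12 in the median, and at 4 of the 12 replicate 1 was higher, against 20 of 353 over all sites; this split was looked at after the values were seen. Of 73 mitochondrial ribosomal protein genes 4 had a site (5.48%), and of 54 translation factor genes 3 did (5.56%). These 3 were eIF2Bbeta, whose site is among the 25 highest, eIF6 and eEF1gamma.

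Chromatin regulators had a site at 9 of 145 genes (6.21%, 3.30 to 11.4), and 57.2% had an IDR peak of any signal. Besides gro, HmgZ and wde they were Chro and ph-p among the 25 highest, and Sin3A, Nelf-E, JMJD6 and sbb. Sin3A, a scaffold of a histone deacetylase complex, had a site 446 bp upstream with 129.7 in replicate 1 and 192.2 in replicate 3. Nelf-E, a subunit of the negative elongation factor, shared its site with RpL14, with 162.3 and 177.9. Sites inside genes with none near a TSS were seen at osa, HmgD, trx, gpp and Gug. trx, the Trithorax H3 lysine 4 methyltransferase, had 100.3 and 183.4, gpp, an H3 lysine 79 methyltransferase, 134.1 and 177.2, and Gug, an Atrophin corepressor, 145.3 and 227.8.

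Transcription factors and cofactors had a site at 10 of the 246 listed genes (4.07%, 2.22 to 7.32): Sox14, Atf3, cbt, shn, REPTOR, bbx, NFAT, Eip75B, CrebB and sbb. Schnurri (shn), a zinc finger factor of Dpp signalling, had 203.1 in replicate 1 and 206.2 in replicate 3, ranks 61 and 156 of the replicate lists. CrebB, the CREB factor, had a first-intron site with 111.1 and 153.9. The repressors known to recruit Groucho, 49 genes that include hairy and members of the E(spl) complex, had 0 sites, and 24.5% had an IDR peak of any signal. A count of 0 of 49 allows a share of up to 7.27% (upper Wilson bound).

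Signalling lists had few genes each. Insulin and TOR signalling had 3 of 38, Lk6 (among the 25 highest), Sesn and REPTOR. EGFR, FGF and Ras signalling had 2 of 38, spi and RasGAP1, with Raf inside. spi, the EGFR ligand Spitz, had 147.9 in replicate 1 and 265.3 in replicate 3. shaggy (sgg), the GSK-3 kinase of Wingless signalling, had 154.0 and 244.9 and was 1 of 33 genes of that pathway. The Notch list had 2 of 38, kuz, the ADAM protease Kuzbanian, and l(2)gd1, an endosomal regulator. The kuz site lay 901 bp upstream and nearer to B4, with 136.2 and 131.4, and l(2)gd1 had 135.3 and 250.6. rdx, a substrate adaptor of Cubitus interruptus turnover, was the 1 gene of 16 in the Hedgehog list, with 147.2 and 202.5. Protein kinases and phosphatases had 5 of 109 (4.59%, 1.98 to 10.3), among them Abl with 125.4 and 163.6. For each of these lists but insulin and TOR signalling (7.89%, 2.72 to 20.8) the Wilson interval includes 2.62%. That exception rests on 3 genes. An IDR peak of any signal was found at 55.3% of the genes of that list, against 25.9% of all genes.

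For the other roles the Wilson interval includes 2.62%. Oxidative phosphorylation had 2 of 87 (2.30%), ND-ASHI and ND-MWFE, and ubiquitin genes 2 of 75 (2.67%), Diap1, an inhibitor of apoptosis, and brat. RNA processing had 5 of 120 (4.17%), larp (among the 25 highest), elav, Smg5, tral and brat. The cytoskeleton had 4 of 98 (4.08%), Act5C, Arp3, chb and shot. Heat shock and chaperone genes had 3 of 43 (6.98%). Of these, Hsp83 had 199.4 and 195.9, ranks 64 and 181 of the replicate lists, and Hsp27 had 127.8 and 202.9. Mediator and general transcription factors had 2 of 67, vacuolar ATPase subunits 2 of 33, vesicle traffic 3 of 71, insulator proteins 1 of 27, Polycomb and Trithorax group 1 of 29, Dpp and activin signalling 1 of 28, JNK signalling 1 of 19 and the ecdysone response 1 of 25. No site lay within 1 kb of a TSS of the 72 listed cell cycle and replication genes. That list is not complete, as Z600, which shared a site with CG7841, is not in it. The same absence held for 48 proteasome genes, 36 Rab genes, 33 aminoacyl-tRNA synthetase genes, 21 Hippo pathway genes and 12 JAK-STAT genes.

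Base composition, which the rule did not use, was shifted at the sites, with a wide overlap. Over 201 bp around the summit the median G+C content was 36.8% (quartiles 33.3% and 41.3%), against 39.8% (35.3% and 45.3%) at the other IDR peaks. Sites at a TSS had 36.8% and sites elsewhere 36.6%, against 40.8% and 38.8%. At the summit itself, mean G+C content was 34.3% at TSS sites and 32.8% elsewhere, and 200 bp to either side it was 43.0% to 43.8%. The other IDR peaks at a TSS had 43.5% at the summit and 40.9% to 41.1% at 200 bp, a high point. Those elsewhere had 39.5% at the summit and 41.4% to 41.8% at 200 bp, a shallower low point than that of the strongest sites. The median region was 262 bp wide against 410 bp. That median was 410 bp both at signals of 150 to 250 and under 150. The sources used here do not state if the peak calling set this width, so no extent of binding is read from it. Within the sites width went the other way, with medians of 383 bp at ranks 1 to 25, 329.5 bp at ranks 26 to 75 and 238.5 bp below these. Whether width, distance from the TSS or base composition accounts for the signal was not tested.

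**Figure D5:**
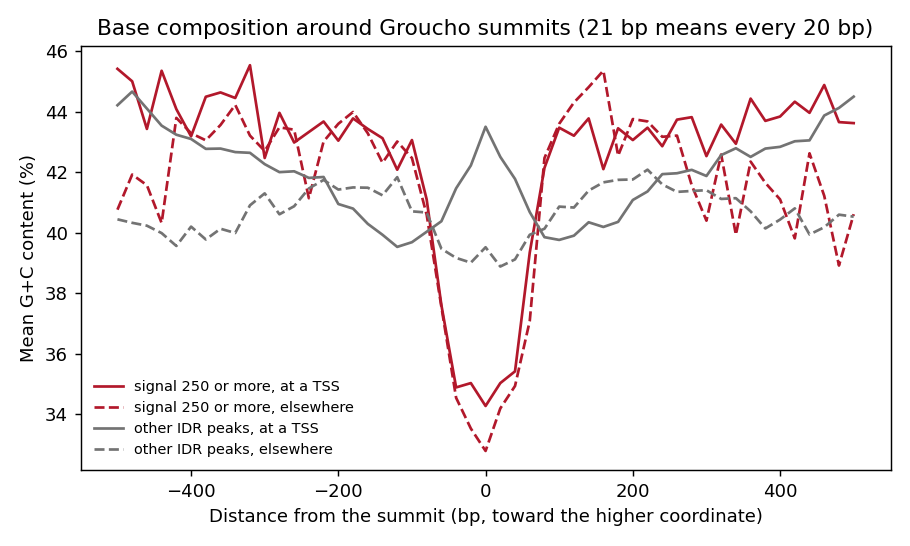
Mean G+C content (vertical axis, %) by distance from the summit (horizontal axis, bp), for the strongest sites (red) and the other IDR peaks (grey), at a TSS (solid) and elsewhere (dashed). Both red curves drop to 34.3% and 32.8% at the summit, the grey TSS curve rises to 43.5% there, and the dashed grey curve has a shallow low of 39.5%.

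Among all 2080 words of 6 letters, counted on both strands in 101 bp around the summit, the 10 whose share of sites most exceeded that of the other IDR peaks held A and T alone. ATTTAA was in 31.5% of sites against 16.8%, TAAATA in 31.3% against 17.3% and TATAAA in 21.1% against 12.3%. The words that were rarer by most were CGATAG, in 4.23% against 9.84%, and ATCGAT, in 4.79% against 10.3%. These words overlap each other and were picked by their difference, so they are a description of base composition.

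Known motifs gave few differences. Of 29 consensus motifs counted in 201 bp around the summit on both strands, 10 were more frequent at the strongest sites and 19 less, with separate Wilson intervals for 4. TATAAA was in 32.4% of sites (27.7 to 37.4) against 24.4% (23.1 to 25.7). CGATA, the core of the BEAF-32 and DREF element, was in 29.9% (25.3 to 34.8) against 37.1% (35.6 to 38.6). The M1BP element Motif 1 (GGTCACACT) was in 1 site (0.28%) against 3.65%, and the Mad consensus (GCCGNCG) in 3.38% against 7.11%. These counts were not adjusted for the lower G+C content of the sites, so no binding factor is read from them. TATAAA 15 to 40 bp upstream of the TSS, where a TATA box acts, was seen at 5 of 223 promoter sites (2.24%) against 2.71%, so its share at that place was not higher. Motifs of repressors known to recruit Groucho did not stand apart: the Su(H) consensus (TGGGAA) was in 11.5% of sites against 10.7%, the engrailed-class homeodomain core (TAATTA) in 13.8% against 11.8%, the C box of Hairy and E(spl) (CACGCG) in 5.35% against 6.89%, and the Runt consensus (AACCGCA) in 3.10% against 2.18%, with overlapping intervals in each case.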

How the data were processed

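ChIP-seq of GFP-tagged Groucho was deposited as peak lists. Per the deposited manifest, 30000 regions were called in each replicate with a control alignment, 30000 in both replicates pooled, and the IDR list was derived from these. For the aligner, the peak caller and the IDR threshold, none is given in the sources used here, nor was the control analysed. The signal is the value the authors deposited, with no scale stated, and the deposited −log10 q value stood at its maximum of 3.74 at all 355 sites and at 2388 of the other 4137. Read counts were not in the lists, so the depth is unknown.

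Each site was matched to the overlapping region of highest signal in each replicate list (1 bp or more). Gene models were those of Ensembl release 115 on 6 arms, with 13945 protein-coding genes among 18164, and sequence was RefSeq Release 6. A summit within 500 bp of a TSS was classed there before any other position, then by UTR, coding sequence, exon and intron. Intervals are Wilson 95% and cover counting error alone; neighbouring summits are not independent. With 1 group of 2 replicates no test between conditions was made. Python 3.11.15, pandas 2.3.3, SciPy 1.17.1 and pysam 0.24.0 were used, and interval matching and motif search were tested on simulated data.

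Motifs were counted on both strands. Besides those spelled out with their values they were the DRE (TATCGATA, which contains CGATA), Ohler motif 7 (CATCNCTA), the E-box CAGCTG, the Myc and Hey E-box CACGTG, the Snail E-box CAGGTG, the Twist E-box CACATG, the GAGA element (GAGAG), the GATA site (TGATAA), Brinker (TGGCGCC), a shorter Runt site (ACCACA), Dorsal (GGGAAAAC), Pangolin (CTTTGA), Pho (GCCATT), Zelda (CAGGTAG, which overlaps the Snail E-box in part), Capicua (TGAATGAA), Grainyhead (AACCGGTT), the Initiator (TCAGTT), AP-1 (TGACTCA), ETS (CCGGAA), the NRF-1 site and the Su(Hw) core (TGCATA).

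The sites, gene lists and motifs were chosen with earlier results of these data known, and a few gene symbols of the lists were corrected to current names afterwards. Genes were named by a rule: the nearest protein-coding TSS for ranks 26 to 75, genes in a list, genes with 2 sites, the edge of the threshold, the highest site of each position class, the extremes of the replicate ratio, and gro. Named outside it, after their values were seen, were the other genes of a shared promoter, Myc and chinmo. CG4497, CG43131 and Nup160 were also named outside it, for how their sites matched the replicate lists.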

Additional observations from a re-analysis of the deposited data

How the results depend on the processing

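The share of sites at a TSS, 65.63% at 500 bp, was 55.49% at 250 bp and 78.59% at 1000 bp. The share with more signal in replicate 3, 94.33%, was 90.65% after division by each replicate's median, and 88.72%, 97.35% and 98.51% at signal thresholds of 200, 300 and 500. The share among the equally many highest regions of both replicates, 74.08%, was 67.32% where 50% of the site had to be covered, 68.81% at a threshold of 200 and 82.35% at 500. Genes with a site within 1 kb numbered 635 at 200 and 73 at 500, against 365. A motif of the 29 was present in 72.96% of windows of 50 bp on each side, against 94.65% at 100 bp. With each replicate left out, so that as many highest regions of the other list were taken, the TSS share ranged from 66.76% to 68.45%, the genes from 375 to 385 and the motif share from 94.37% to 94.65%. The causes were not tested. No paired analysis was possible because there is 1 group. What limits these values is that 2 replicates give an imprecise estimate of the spread at each site, the depth is unknown, and the signal has no stated scale.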
